A study of Mus musculus with 12 samples.

Results

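The genes described here were level between GFRα1+ and NGN3+ spermatogonia and stood higher in KIT+ spermatogonia. They were chosen on the deposited log2 values, with the brightest probe of each gene over the 9 arrays of sorted cells standing for it. A gene was taken where the NGN3+ mean lay within 0.5 of the GFRα1+ mean, the KIT+ mean lay at least 1.2 above the NGN3+ mean (2.30-fold) and the KIT+ mean was at least 0, the 75th percentile of an array. Of 36413 genes named on the array, 125 met all of these conditions. Their levels in the sorted cells were therefore fixed in part by the choice, and the differences between GFRα1+, NGN3+ and KIT+ cells are given as a description, without a test.

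RNA was measured on 12 single-color arrays in 4 groups of 3, all from adult C57BL/6 testes at 10-11 weeks of age. GFRα1+ cells were sorted by EGFP from Gfra1-EGFP knock-in mice, 1 mouse per sample. NGN3+ cells were the GFP+/KIT− fraction of Ngn3-EGFP transgenic mice, with 2 mice pooled per sample, and KIT+ cells were the GFP+/KIT+ fraction of the same line, 1 mouse per sample. GFP outlasts the activity of the Ngn3 promoter in this line, which is why KIT+ cells can be sorted by it, so KIT+ here means the KIT+ cells that still held GFP. Whole testes came from wild-type littermates of the knock-in line. Sorted samples held 10000 to 20000 cells and whole testes samples 500000 cells. Samples of a cell type came from different animals. The GFRα1+ cells thus differed from the other sorted cells in mouse line as well as in stage. By the file headers, GFRα1+ replicates 1 and 2 were also on another slide than the NGN3+ and KIT+ arrays, which shared theirs with GFRα1+ replicate 3. With GFRα1+ replicate 3 alone for its group, 118 genes met the conditions, 109 of the members among them.

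In the mouse testis, GFRα1+ and NGN3+ cells are undifferentiated spermatogonia, and the first KIT+ cells arise from NGN3+ cells when retinoic acid (RA) reaches them. KIT is the receptor tyrosine kinase for stem cell factor, which Sertoli cells make, and serves as the standard marker of differentiating spermatogonia. Stra8 is the best known RA-induced gene of the germline: it is induced in differentiating spermatogonia and again in cells about to enter meiosis, where it is needed.

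RA receptors bind pairs of the hexamer AGGTCA and its variants, so the promoters of the members were searched for it. Windows of 250 bases before the annotated start were taken from RefSeq (GRCm38.p6), and 92 members had at least 1 such window. The following windows are shown because they are those of the best known RA target (Stra8), of a meiotic gene with the hexamer (Mei1), of the gene that the sort is named after (Kit) and of a retinoid-binding protein (Crabp1). Capitals mark AGGTCA and the GC box GGGCGG on either strand.
Stra8: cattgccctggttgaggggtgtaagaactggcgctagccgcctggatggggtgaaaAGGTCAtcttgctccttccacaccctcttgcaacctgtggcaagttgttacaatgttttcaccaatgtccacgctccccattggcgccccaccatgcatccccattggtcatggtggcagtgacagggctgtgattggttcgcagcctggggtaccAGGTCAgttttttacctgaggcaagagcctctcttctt
Mei1: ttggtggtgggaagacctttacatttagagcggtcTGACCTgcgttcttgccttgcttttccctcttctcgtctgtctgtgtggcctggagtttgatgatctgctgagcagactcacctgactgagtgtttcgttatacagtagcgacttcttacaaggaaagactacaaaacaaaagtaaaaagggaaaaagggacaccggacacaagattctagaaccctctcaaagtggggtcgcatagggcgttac
Kit: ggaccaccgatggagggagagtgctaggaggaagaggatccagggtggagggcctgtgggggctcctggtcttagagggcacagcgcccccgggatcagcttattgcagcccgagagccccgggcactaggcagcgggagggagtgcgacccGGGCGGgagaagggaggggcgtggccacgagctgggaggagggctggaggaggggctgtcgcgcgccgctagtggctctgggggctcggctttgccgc
Crabp1: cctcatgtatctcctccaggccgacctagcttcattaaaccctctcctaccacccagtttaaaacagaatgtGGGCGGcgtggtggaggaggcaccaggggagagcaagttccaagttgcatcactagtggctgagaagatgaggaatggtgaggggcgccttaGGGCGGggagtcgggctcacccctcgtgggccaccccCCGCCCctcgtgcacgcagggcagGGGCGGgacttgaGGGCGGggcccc

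The Stra8 window (chr6:34920698-34920947, plus strand) held AGGTCA at 2 places, beginning 194 and 38 bases before the start, and no GC box. The Mei1 window (chr15:82082226-82082475, plus strand) held it once, on the opposite strand, beginning 215 bases before the start. The windows of Kit (chr5:75574737-75574986, plus strand) and Crabp1 (chr9:54764498-54764747, plus strand) held no AGGTCA, and had 1 and 5 GC boxes. In all, 11 of 92 members (12%) held AGGTCA, namely Airn, Col7a1, Fam171a1, Gdf1, H2-K1, Letmd1, Mei1, Mitf, Rps6ka6, Stra8 and Tmem141. The share was 13.6% of 7425 genes with a KIT+ mean of at least 0 and 15.8% of all 27025 RefSeq genes with a window. GGGCGG stood in 76.1% of members, in 63.2% of the genes with a KIT+ mean of at least 0 and in 35.4% of all genes. The E-box CACCTG stood in 25.0%, 18.3% and 19.4% of the same sets, and CCAAT in 42.4%, 41.5% and 37.5%. Both strands were searched, matches of different motifs may share bases, and a gene with several windows was counted once, with the first shown here. A match is a match of letters only, and these windows leave out everything beyond 250 bases. No share was tested.

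**Figure D1:**
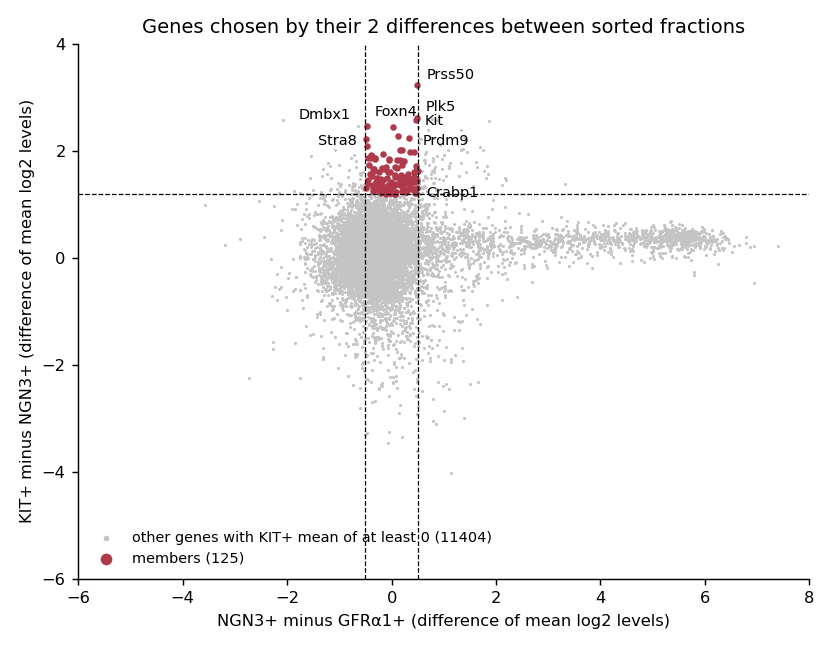
Each point is a gene with a KIT+ mean of at least 0, placed by NGN3+ minus GFRα1+ (x axis, log2) and KIT+ minus NGN3+ (y axis, log2) in the deposited values. The 125 members lie in the band within 0.5 on the x axis and above 1.2 on the y axis, up to 3.24 for Prss50.

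The KIT+ condition and the floor were met by 264 genes, of which 81 lay more than 0.5 higher and 58 more than 0.5 lower in NGN3+ than in GFRα1+ cells. The members are thus the part of these 264 genes that was level at the earlier step. Letmd1 and Prss50 were just inside that band, at 0.50 each, and Plch2 and Gnai1, at 0.51 each, were just outside it. Emc7 (1.201) and Myef2 (1.202) were just inside the KIT+ step, while Fhod1 (1.198) and Htra2 (1.195) fell just short. Prdm9 (0.02) and H2bc3 (0.02) were just above the floor of the KIT+ mean, and 2610507I01Rik (−0.03) was just below. All values in this paragraph are log2 differences, or log2 levels relative to the 75th percentile for the KIT+ mean.

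Of the members, 113 had a RefSeq symbol and 109 of these were protein coding genes. A further 6 were probes for long intergenic noncoding RNAs (lincRNAs), which made up 12.7% of the gene names on the array, and 5 were Ensembl transcripts that the files name only by their identifier. Probes of D330022H12Rik and of the lincRNA on chromosome 16 overlap by 58 bases, so their values are 1 measurement made with a pair of probes. Histone genes (H2bc1, H2bc3 and H4c9), H2-K1, Prl2c1 and Vmn2r-ps134 belong to families of near-identical copies, and their probes may have read more than 1 of them.

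The median KIT+ minus NGN3+ difference of the members was 1.45 on the log2 scale (2.74-fold). In 11 members it was at least 2, and in 74 it was under 1.5. In this comparison 17.5% of all genes tested were higher in KIT+ cells. In 123 of 125 members every KIT+ array lay above every NGN3+ and GFRα1+ array, a separation that the choice of members favors. No share over all genes is given for this count, and it is a description only.

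2310009B15Rik and Slc16a6, the other 2, rested on a single spot. In the deposited table, 2310009B15Rik was 8.30 in KIT+ replicate 1 but 1.71 and 1.33 in KIT+ replicates 2 and 3, against 1.77, 1.48 and 1.41 in NGN3+ cells. Slc16a6 was 7.69 in KIT+ replicate 1 but 2.27 and 2.07 in the other KIT+ replicates, against 3.01, 2.63 and 2.45 in NGN3+ cells. The scanner files mark both spots of KIT+ replicate 1 as outliers. With those spots left out the data go against the membership of both genes, and their KIT+ values below come from 2 arrays.

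The median level over the members was 0.32, 0.18 and 0.41 on the GFRα1+ arrays, 0.12, 0.26 and 0.55 on the NGN3+ arrays, 1.54, 1.89 and 1.76 on the KIT+ arrays and −0.25, −0.54 and −0.41 on the whole testes arrays (log2, relative to the 75th percentile of each array). KIT+ arrays were highest, and whole testes arrays lay below all sorted cells. NGN3+ replicate 3 was the highest NGN3+ array for 120 of 125 members, but for 27.2% of the 17655 genes well above background on all arrays. On that array the members lay a median of 0.33 above the mean of the other NGN3+ arrays, and the list of undifferentiated spermatogonial genes lay 0.33 below it (median −0.33). The median KIT+ minus NGN3+ difference of the members was 1.55 without NGN3+ replicate 3 and 1.23 against that array alone, so it was lower but present there. With outlier spots left out, KIT+ replicate 1 was not the highest KIT+ array for any member. No share over all genes is given for that count. The members lay a median of 0.23 below the mean of the other KIT+ arrays there (−0.23), against −0.09 for the genes well above background on all arrays. These are sorted populations, in which more cells expressing a gene and more RNA per cell cannot be told apart, and the part that the makeup of NGN3+ replicate 3 played was not tested.

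**Figure D2:**
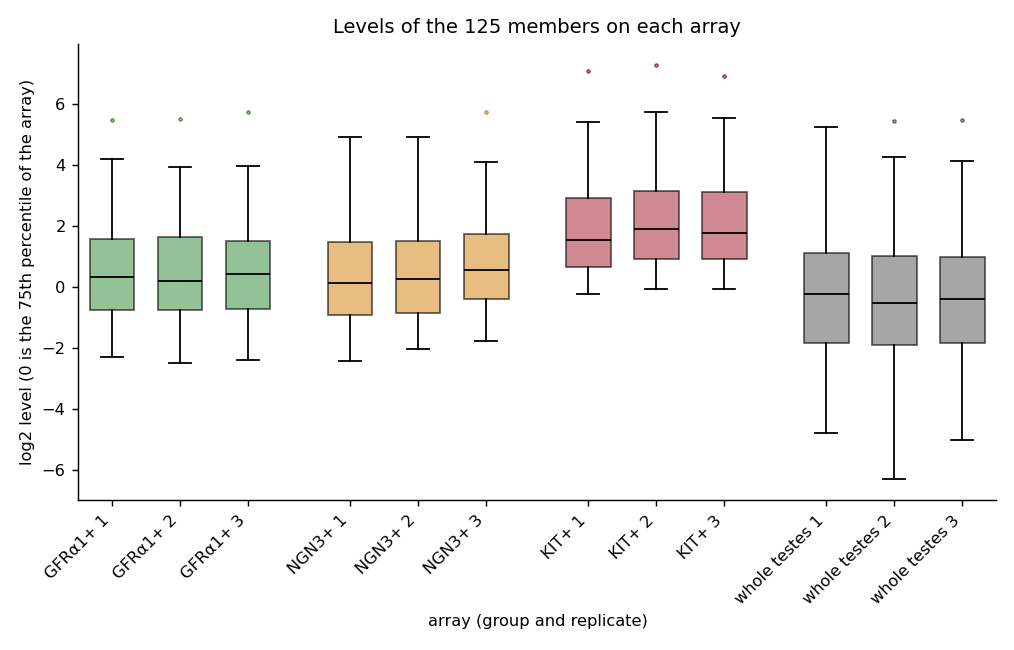
Box plots of the 125 members on each of the 12 arrays (y axis, log2 level relative to the array's 75th percentile), in the order GFRα1+, NGN3+, KIT+ and whole testes. The medians lie between 1.54 and 1.89 on KIT+ arrays, at most 0.55 on GFRα1+ and NGN3+ arrays and below 0 on whole testes arrays.

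Whole testes took no part in the choice of members, so KIT+ cells were tested against whole testes with limma over all 12 arrays. The KIT+ side did take part in it. Of the 125 members, 114 (91.2%) were higher in KIT+ cells, 4 were lower and 7 did not pass an adjusted p of 0.05. Among all 24686 genes tested, 43.7% were higher and 41.2% were lower, and among the 11529 with a KIT+ mean of at least 0, the floor that the members had to pass, 58.6% were higher and 30.7% were lower. The median log2 ratio was 2.49 over the members (5.61-fold), 0.77 over the genes with a KIT+ mean of at least 0 and 0.08 over all genes tested. The ratio was above 1 in 101 members, above 2 in 79 and above 4 in 17. Arrays of KIT+ cells lay wholly above those of whole testes in 115 members and wholly below in 6, and overlapped in 4. The mean of whole testes lay below those of both GFRα1+ and NGN3+ cells in 86 members, above that of KIT+ cells in 8, and between in 31. No share over all genes is given for the counts of overlap or of this order, so they describe the members only.

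**Figure D3:**
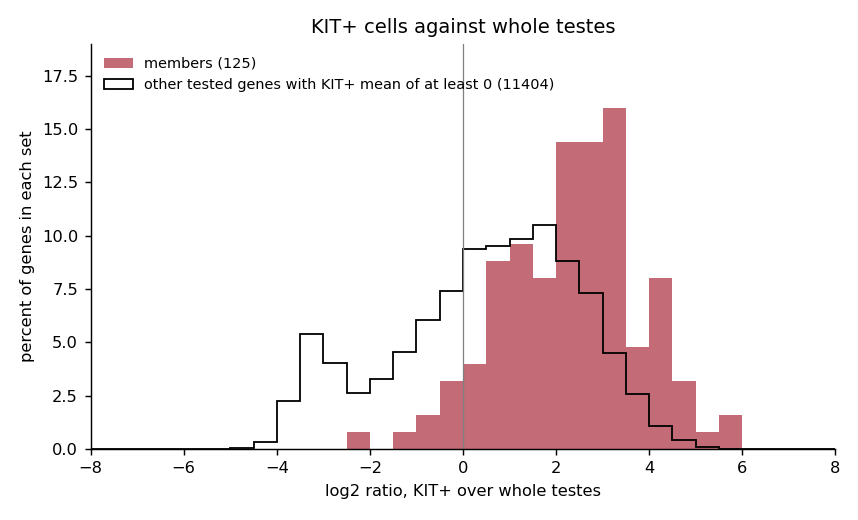
Distribution of the log2 ratio of KIT+ cells over whole testes (x axis) for the 125 members, and for the 11404 other genes with a KIT+ mean of at least 0, as a percent of each set (y axis). The members center on 2.49, and 4 of them were called lower in KIT+ cells.

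KIT+ cells and whole testes were on different slides throughout, and GFRα1+ arrays were the only link between those slides. With slide as a block the members' median ratio was 2.30, with 107 higher and 2 lower. Prss50 then had a ratio of 0.52 (adjusted p = 0.24, limma), against 1.22 without the block, and 8 other members lost their calls. For H2bc1 (0.63 with the block, 0.44 without), Flrt1 (0.67 and 0.66), Tmem141 (0.36 and 0.40), H4c9 (0.77 and 0.89), Col7a1 (0.81 and 0.92) and M1ap (−0.47 and −0.64) the log2 ratio itself moved by less than 1.5 times. It was 0.55 with the block and 0.86 without for Slc7a8, and −0.14 with the block and −0.72 without for 1700013H16Rik.

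Among genes of retinoid handling, Stra8 and the binding proteins Crabp1 and Rbp4 were higher in KIT+ cells than in whole testes, and Ncoa1, a coactivator of nuclear receptors, did not pass the test. Stra8 (probe at chr6:34889237-34889296, mm9) was 5.45, 5.50 and 5.72 in GFRα1+ cells, 4.90, 4.91 and 5.71 in NGN3+ cells, 7.07, 7.27 and 6.91 in KIT+ cells and 3.68, 3.08 and 3.37 in whole testes. It was thus well above the 75th percentile before the KIT+ step, and NGN3+ replicate 3 was the NGN3+ array nearest to KIT+ cells. Its log2 ratio of KIT+ cells over whole testes was 3.71 ± 0.23 (SE, adjusted p = 4.71e-08, limma). Crabp1, which binds RA in the cytoplasm, was 2.79, 2.80 and 2.87 in GFRα1+ cells, 3.24, 3.13 and 3.55 in NGN3+ cells, 4.58, 4.95 and 4.73 in KIT+ cells and 0.08, −0.34 and −0.18 in whole testes. All sorted arrays lay above all whole testes arrays, and the ratio of KIT+ cells was 4.90 ± 0.15 (SE, adjusted p = 2.19e-09, limma). Rbp4, the retinol carrier of the blood, was 4.14, 4.34 and 4.37 in KIT+ cells and 1.38, 1.05 and 0.97 in whole testes. For Ncoa1 the KIT+ arrays (1.46, 1.67 and 1.93) overlapped those of whole testes (1.43, 1.38 and 1.60).

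The meiotic genes among the members were Stra8, Prdm9, Mei1, Meioc and M1ap, and they divided in the comparison with whole testes. Prdm9, the histone H3 lysine 4 methyltransferase that places recombination hotspots, was −2.29, −2.49 and −2.39 in GFRα1+ cells, −2.08, −2.05 and −1.77 in NGN3+ cells, −0.13, −0.08 and 0.25 in KIT+ cells and −1.16, −1.56 and −1.39 in whole testes. Every KIT+ array lay above every other array, and the log2 ratio over whole testes was 1.38 ± 0.15 (SE, adjusted p = 4.14e-06, limma). Mei1, needed for the double-strand breaks of meiosis, was 3.95, 4.22 and 4.06 in KIT+ cells and 1.85, 1.83 and 1.98 in whole testes. Meioc, which keeps germ cells in meiotic prophase, was 1.20, 1.29 and 1.66 in KIT+ cells and 1.25, 1.24 and 1.23 in whole testes, a difference that did not pass the test. M1ap, a meiosis gene of the male germline, was lower in KIT+ cells (4.63, 4.83 and 4.75) than in whole testes (5.23, 5.42 and 5.47). Histone genes also stood in the set: H2bc1, a testis-specific H2B, was 4.28, 4.61 and 4.46 in KIT+ cells and 3.84, 4.10 and 4.10 in whole testes. Its log2 ratio was 0.44, its adjusted p (0.0444, limma) was the highest among the calls, and the call was lost in 9 of the alternatives. H2bc3, a replication-dependent H2B, was −0.17, 0.23 and −0.02 in KIT+ cells and −3.21, −3.26 and −3.32 in whole testes, without overlap.

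The receptors among the members were Kit, Fgfr3, Ephb4 and Fzd9, and each was higher in KIT+ cells than in whole testes. In that comparison 91.2% of all 125 members were higher, and 58.6% of genes with a KIT+ mean of at least 0. Counts in this and the later groups by role are to be read against those shares. The groups were drawn after values were seen, so a count depends on which members were placed in a group. Kit (probe at chr5:76052394-76052453, mm9) was 1.58, 1.36 and 1.57 in GFRα1+ cells, 1.47, 1.82 and 2.60 in NGN3+ cells, 4.46, 4.67 and 4.51 in KIT+ cells and 0.30, −0.28 and −0.26 in whole testes. NGN3+ cells were sorted as KIT−, and the Kit level of replicate 3 was the highest of the 3. The ratio of KIT+ cells over whole testes was 4.63 ± 0.26 (SE, adjusted p = 2.17e-08, limma). Ephb4, a receptor for ephrins, was −0.15, −0.24 and −0.03 in GFRα1+ cells, −0.17, −0.33 and −0.03 in NGN3+ cells, 1.35, 1.52 and 1.39 in KIT+ cells and −1.88, −2.31 and −2.19 in whole testes. The GFRα1+ and NGN3+ arrays overlapped, with KIT+ arrays above them and whole testes arrays below. Fgfr3, a fibroblast growth factor receptor, and Fzd9, a Wnt receptor, had KIT+ minus NGN3+ differences of 1.28 and 1.74 and ratios over whole testes of 2.52 and 1.53.

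Ligands and other surface signals (8 members) were all higher in KIT+ cells than in whole testes, as were 91.2% of all members. The median log2 ratio of the 8 was 3.19, against 2.49 over all members. Sdc1, a heparan sulfate proteoglycan of the cell surface, was 2.27, 2.41 and 2.33 in KIT+ cells and −2.10, −2.06 and −1.76 in whole testes. Scube1, a secreted and membrane-bound glycoprotein, was 0.81, 1.23 and 1.12 in KIT+ cells and −2.52, −3.67 and −3.13 in whole testes. Both separated without overlap, with ratios of 4.31 and 4.16. Jag2, a Notch ligand, Gal, the neuropeptide galanin, and Gdf1, a ligand of the TGF-beta family, had ratios of 2.75, 2.90 and 3.48. Nrtn, which like GDNF belongs to the ligands that signal through RET, was 4.14, 4.58 and 4.25 in KIT+ cells, against 2.79, 3.01 and 2.93 in whole testes. Its level in whole testes was close to that in NGN3+ cells (2.81, 2.67 and 3.06). Apln, the ligand of the apelin receptor, was 0.36, 0.47 and 0.24 in KIT+ cells and −1.30, −2.25 and −2.85 in whole testes.

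Of 9 members grouped as kinases and signal transducers, 8 were higher in KIT+ cells than in whole testes, against 91.2% of all members. Vrk2 did not pass (log2 ratio −0.03). Plk5, a Polo-like family member, was 0.13, −0.22 and −0.02 in GFRα1+ cells, −0.13, 0.50 and 0.96 in NGN3+ cells, 2.97, 3.12 and 3.09 in KIT+ cells and −0.90, −1.08 and −0.69 in whole testes. KIT+ arrays lay above all others. Pim2, a serine/threonine kinase that promotes survival, and Rps6ka6, of the ribosomal S6 kinase family, had ratios over whole testes of 3.28 and 2.50. Rap1gap, which turns off the GTPase Rap1, and Cdk5r1, the activator of Cdk5, had ratios of 2.82 and 3.02.

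All 12 members grouped as transcription factors and chromatin proteins were higher in KIT+ cells than in whole testes, as were 91.2% of all members. The coactivator Ncoa1, which did not pass, was placed with the genes of retinoid handling and is not among these 12. Foxn4, a forkhead factor, was 0.30, 0.38 and 0.58 in GFRα1+ cells, 0.27, 0.25 and 0.80 in NGN3+ cells, 2.89, 3.13 and 2.63 in KIT+ cells and −2.14, −2.27 and −1.94 in whole testes. Dmbx1, a homeobox factor, was −0.48, −1.12 and 0.00 in GFRα1+ cells, −1.34, −1.42 and −0.25 in NGN3+ cells and 1.22, 1.56 and 1.59 in KIT+ cells, and was well above background on 2 of 3 whole testes arrays. Foxn4 had a log2 ratio over whole testes of 5.0, and Dmbx1 was at least 46.5-fold higher in KIT+ cells (adjusted p = 3.55e-08, limma). For such a bound the lowest signal well above background on each array stood in for dimmer values. E2f2, a factor that drives entry into S phase, was 0.39, 0.67 and 0.83 in GFRα1+ cells, −0.36, 0.37 and 0.48 in NGN3+ cells and 2.15, 2.03 and 2.56 in KIT+ cells. Its GFRα1+ and NGN3+ arrays overlapped. Rhox13, an X-linked homeobox gene of the germline, was 4.09, 4.45 and 4.43 in KIT+ cells and 1.60, 1.02 and 1.04 in whole testes. Mitf, the factor that acts with KIT in melanocytes and mast cells, had a KIT+ minus NGN3+ difference of 1.36 and a ratio over whole testes of 2.77. Of 9 mast cell markers, Tpsb2 and Hdc were well above background on all 3 KIT+ arrays (means −0.78 and −0.10, against −0.66 and 0.20 in NGN3+ cells), Tpsab1 and Fcer1a on 1 each, and Mcpt4, Cma1, Cpa3, Ms4a2 and Mrgprb1 on none. The list's summed level was 0.65 to 0.87 on KIT+ arrays, against 0.83 to 0.99 on NGN3+ arrays and 2.60 to 2.86 on whole testes arrays. Bmyc, a relative of Myc, and Mlxipl, the glucose-responsive factor ChREBP, had ratios of 1.73 and 3.06.

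**Figure D4:**
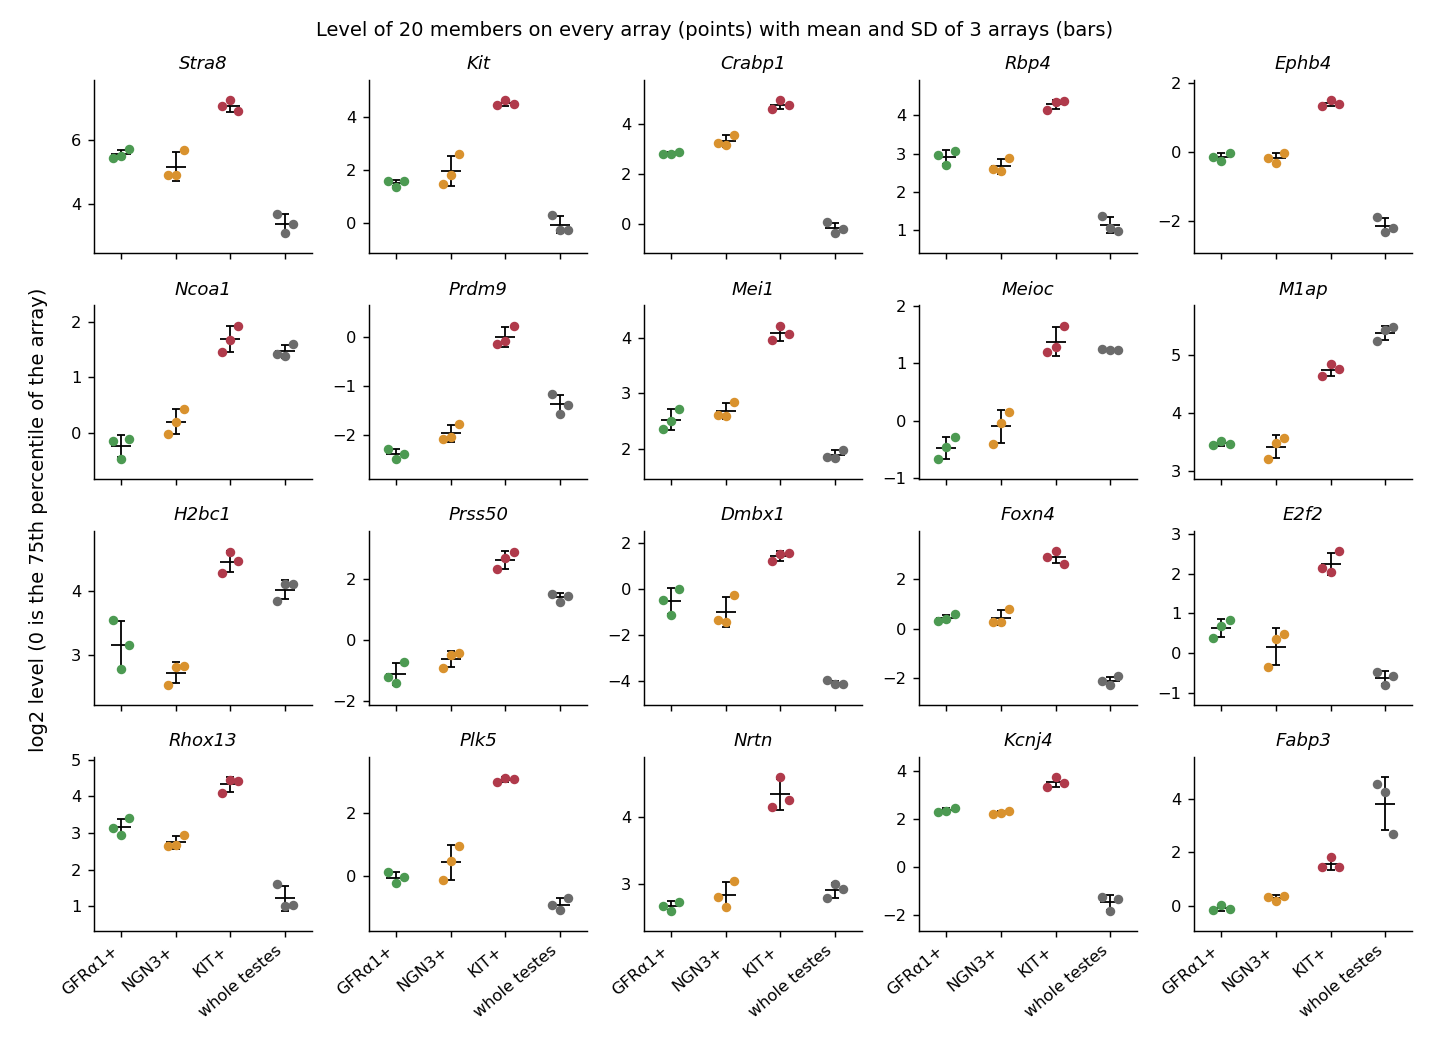
Levels (y axis, log2 relative to the 75th percentile) on each array of GFRα1+, NGN3+ and KIT+ cells and whole testes for members of different roles. Points are arrays and bars are the mean and SD (n = 3 per group), and the KIT+ arrays lie above the whole testes arrays except for Ncoa1, Meioc, M1ap and Fabp3.

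Prss50, a serine protease of the germline also called Tsp50, had the largest KIT+ minus NGN3+ difference, 3.24. It was −1.20, −1.40 and −0.71 in GFRα1+ cells, −0.91, −0.49 and −0.43 in NGN3+ cells, 2.32, 2.68 and 2.88 in KIT+ cells and 1.52, 1.24 and 1.46 in whole testes. KIT+ arrays were the highest, but whole testes also lay well above the other sorted cells. Morc4, an X-linked member of the MORC ATPase family, was −1.72, −2.30 and −1.65 in GFRα1+ cells, −2.20, −1.39 and −1.10 in NGN3+ cells, 0.62, 0.60 and 0.81 in KIT+ cells and −1.21, −1.80 and −1.37 in whole testes. Its whole testes arrays overlapped those of GFRα1+ and NGN3+ cells. Cd63, a tetraspanin of late endosomes, was 5.41, 5.72 and 5.51 in KIT+ cells and 3.39, 3.50 and 3.49 in whole testes. Rab26, a small GTPase of vesicle transport, and Tmem9, a protein of lysosomes, had KIT+ minus NGN3+ differences of 2.01 and 1.87 and ratios over whole testes of 3.13 and 2.05. Of 7 members of vesicles and endosomes, 6 were higher than in whole testes, against 91.2% of all members, and Creg1 did not pass (−0.29).

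The 8 transporters and channels were all called higher in KIT+ cells than in whole testes, as were 91.2% of all members. The median ratio of the 8 was 1.50, against 2.49 over all members. Kcnj4, an inward rectifier potassium channel, was 2.31, 2.33 and 2.46 in GFRα1+ cells, 2.22, 2.25 and 2.35 in NGN3+ cells, 3.34, 3.74 and 3.48 in KIT+ cells and −1.24, −1.80 and −1.33 in whole testes. Its ratio over whole testes, 4.98, came with a KIT+ minus NGN3+ difference of 1.25, since GFRα1+ and NGN3+ cells were already far above whole testes. Slc16a10, a transporter of aromatic amino acids, was 0.74, 0.84 and 1.26 in KIT+ cells and −2.14, −2.27 and −2.56 in whole testes. Slc2a4, the insulin-responsive glucose transporter GLUT4, was −0.23, 0.19 and 0.15 in KIT+ cells and −1.33, −1.85 and −1.37 in whole testes. The group includes Slc16a6, whose KIT+ step rested on the outlier spot described above.

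Among the noncoding RNAs, 9 of 9 were higher in KIT+ cells than in whole testes, as were 91.2% of all members. The median ratio of the 9 was 4.04, against 2.49 over all members. D330022H12Rik and the lincRNA on chromosome 16 are counted separately in these 9, though their overlapping probes are 1 measurement. The lincRNA probe on chromosome X (chrX:91000519-91000578, mm9) was −1.77, −1.23 and −1.22 in GFRα1+ cells, −0.96, −1.12 and −0.83 in NGN3+ cells and 0.08, 0.62 and 0.27 in KIT+ cells. It was not well above background on any whole testes array, so that KIT+ cells were at least 26.5-fold higher (adjusted p = 3.52e-08, limma). The lincRNA probes on chromosome 11 (chr11:96114981-96115040, mm9) and chromosome 1 (chr1:194659370-194659429, mm9) had ratios of 4.67 and 4.36. Airn, the imprinted noncoding RNA at the Igf2r locus, was 0.05, 0.23 and 0.37 in KIT+ cells and was well above background on 1 of 3 whole testes arrays (at least 16.0-fold). These values are those of the chosen probes, and at 3 of the loci other probes had the opposite sign against whole testes: −0.65 for Airn, −0.37 on chromosome 11 and −0.38 to −0.82 for 4 of 5 on chromosome X, the remaining probe there giving 0.69. Vmn2r-ps134, a pseudogene of the vomeronasal receptors outside this group, was well above background on 2 of 3 whole testes arrays (at least 19.7-fold).

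The 4 members that were lower in KIT+ cells than in whole testes were Fabp3, Emc7, 1700013H16Rik and M1ap. Fabp3, a fatty acid binding protein best known from heart muscle, was −0.16, 0.03 and −0.10 in GFRα1+ cells, 0.34, 0.16 and 0.35 in NGN3+ cells, 1.46, 1.84 and 1.44 in KIT+ cells and 4.54, 4.24 and 2.69 in whole testes. Whole testes were above all sorted cells, and their spread was wide (ratio −2.24 ± 0.37, SE, adjusted p = 0.00017, limma). Emc7, a subunit of the membrane protein complex of the endoplasmic reticulum, was 2.41, 2.60 and 2.68 in KIT+ cells and 3.71, 3.73 and 3.59 in whole testes. 1700013H16Rik, an X-linked gene, was 1.97, 1.96 and 2.13 in KIT+ cells and 2.50, 2.85 and 2.87 in whole testes. The members that did not pass were H2-K1, a class I histocompatibility gene, Creg1, Arhgap20, Vrk2, Meioc, Ncoa1 and Nufip1, with log2 ratios between −0.34 and 0.29. H2-K1 was 1.51, 1.65 and 0.69 in GFRα1+ cells, 1.07, 1.04 and 1.25 in NGN3+ cells, 2.96, 3.12 and 3.13 in KIT+ cells and 3.45, 3.24 and 3.55 in whole testes.

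Other members with a large KIT+ step had no shared role. Cygb, the globin cytoglobin, was −0.60, −0.49 and −1.77 in GFRα1+ cells, −0.98, −0.70 and −0.15 in NGN3+ cells and 1.15, 1.57 and 1.37 in KIT+ cells. GFRα1+ replicate 3 lay apart from the other GFRα1+ arrays. Galnt14, which starts O-glycosylation, and Ankle1, an endonuclease, had KIT+ minus NGN3+ differences of 1.84 each and ratios over whole testes of 1.73 and 3.17. Nufip1, an RNA-binding protein, had a difference of 1.87 and did not pass against whole testes. Llgl2, a cell polarity protein, had a ratio over whole testes of 4.11, among the 10 largest of the members measured on all arrays of both groups.

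The X chromosome carried 11 members (8.80%), against 4.14% of all genes with a position and 4.06% of those with a KIT+ mean of at least 0. Of these 11, 10 were higher in KIT+ cells than in whole testes, with a median ratio of 2.53. Among the 466 X-linked genes with a KIT+ mean of at least 0, 63.7% were higher, with a median of 1.23. Chromosome 11 held 16 members (12.8%, against 6.82% of all genes and 8.33% of those with a KIT+ mean of at least 0). Chromosomes 5 and 17 also held 11 members each (8.80%). Their shares of genes with a KIT+ mean of at least 0 were 6.65% and 5.33%. Chromosomes 3 and 18 held 0 members, against 4.47% and 2.26% of those genes. Members within 100 kb of each other were Caskin2 and Llgl2, Nudt22, Trpt1 and Flrt1, and Tmem141 and Bmyc, beside the overlapping probes on chromosome 16. None of these shares was tested.

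Other probes of the same genes gave a second reading. Of 74 other probes, on 49 members, 51 (of 40 members) were well above background on all 3 KIT+ arrays. KIT+ cells were above NGN3+ cells on 46 of these and by at least 1.2 on 28, and 22 met both step conditions of the rule. Their median difference was 1.26, against 1.41 for the probes that the rule had used. Both other probes of Ncoa1 (1.36 and 1.39) and the other probe of Mitf (1.44) and Fgfr3 (1.13) read a similar step. For Vma21, a chaperone of the vacuolar proton pump, the 3 other probes gave −0.21, 0.35 and 0.30 where the chosen probe gave 1.32. Other probes of H4c9 (−0.03), the lincRNA on chromosome 11 (−0.18) and Airn (0.20) did not read a step of the chosen probe's size. Nor did the 5 on chromosome X, at −0.24 to 0.31. For 2310009B15Rik, with the outlier spot left out, neither the chosen probe (−0.03) nor the other probe (−0.10) read a step. Of the pair of other probes on chromosome 17, 1 gave 0.10 and the other 1.68, and of the pair of Creg1, 1 gave 0.33 and the other 1.28. The other probe of Cbfa2t3 gave 0.37, and that of Meioc 0.76. Against whole testes, 40 of the 51 had the same sign as the chosen probe. Beside the noncoding loci above, the sign was the opposite for Cbfa2t3 (−1.92), Meioc (−1.68), Tmem9 (−0.49, where the chosen probe gave 2.05), H4c9 (−0.38) and H2-K1 (0.22). The calls of 5 members depended on the probe. With the mean of all probes the ratios of Cbfa2t3 and Meioc were −0.53 (adjusted p = 0.0537) and −0.77 (adjusted p = 0.000436) in limma, and Creg1 was called lower (−0.75, adjusted p = 0.000715). H4c9 (0.26, adjusted p = 0.0585) and 2310009B15Rik (0.41, adjusted p = 0.16) were then not called.

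**Figure D5:**
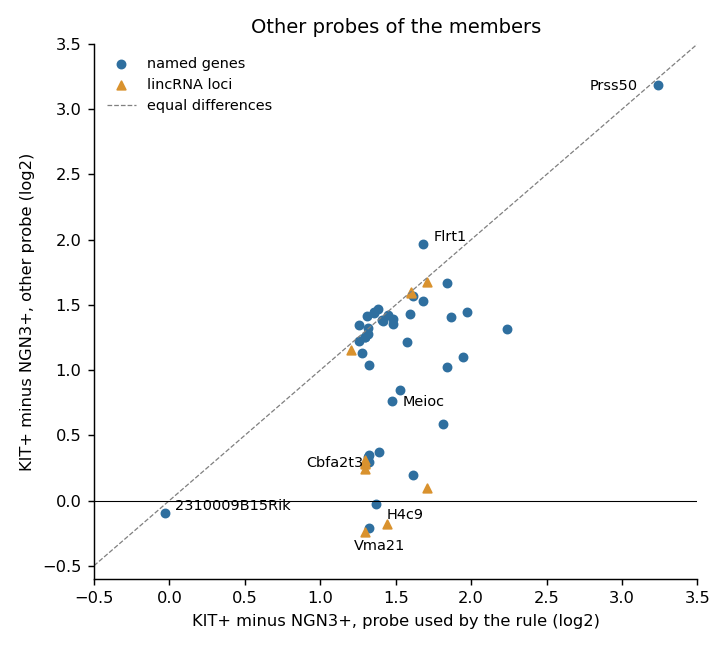
KIT+ minus NGN3+ (log2) on the probe that the rule used (x axis) and on each other probe of the same gene well above background on all KIT+ arrays (y axis, 51 probes of 40 members). Most lie near the diagonal, and 5 lie at or below 0 on the y axis.

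Of the list of markers of differentiating spermatogonia (15 genes), 5 were members, namely Prss50, Kit, Stra8, Rhox13 and Crabp1. Of its other 10 genes, 6 were higher in KIT+ than in NGN3+ cells, 3 were lower and 1 did not pass, against 17.5% higher and 17% lower of all 24147 genes tested (limma). Esx1, an X-linked homeobox gene, was higher by 1.91 ± 0.16 (SE) and the transcription factor Dmrtb1 by 1.38 ± 0.29, and both also stood higher in NGN3+ than in GFRα1+ cells, at means of 1.92 and 1.88 against 0.92 and −1.44. The list of undifferentiated spermatogonia held no member, and 25 of its 26 genes tested were lower in KIT+ than in NGN3+ cells (median −1.98, against 0.05 over all genes tested). Nanos2, an RNA-binding protein of stem spermatogonia, had a log2 ratio of −4.23 and Id4, an inhibitor of DNA binding, −2.48. Summed levels of that list were 6.68 to 6.96 on KIT+ arrays and 8.05 to 8.64 on NGN3+ arrays.

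Other genes of the RA pathway moved both ways at the KIT+ step. Among RA target genes, Stra8 was a member, and of 25 others tested, 9 were higher, 6 lower and 10 did not pass (median 0.34). Cyp26b1, an enzyme that degrades RA, was higher by 1.78 ± 0.13 (SE) and Nrip1, a nuclear receptor corepressor, by 1.50 ± 0.14. Egr1, an immediate early transcription factor (−3.31, adjusted p = 1.3e-05), and Tfap2c, an AP-2 factor of germ cells (−2.09, adjusted p = 8.1e-05), were lower (limma). Of 6 RA receptor genes, Rarb (1.64) and Rxrb (0.52) were higher and Rarg was lower (−1.15). In RA metabolism and binding, where Crabp1 and Rbp4 were among the members, 4 of 18 others were higher, among them Crabp2 (1.05) and Fabp5 (0.67), and Cyp2s1 was lower (−1.23).

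Of 44 meiotic genes that were not members, 19 were higher in KIT+ than in NGN3+ cells, 5 lower and 20 did not pass (median 0.26). Smc1b, a cohesin of meiosis, was higher by 1.01 and Msh5, which acts at crossovers, by 1.13, while Mnd1, a recombination factor, was lower (−1.08). The cell cycle lists held E2f2 as their single member. Of 50 genes of DNA replication, 32 were higher and 3 lower (median 0.49), and of 30 of mitosis and the spindle, 24 were higher and 6 did not pass (median 0.71). Rrm2, a subunit of ribonucleotide reductase, was higher by 1.64 and Prc1, a protein of the spindle midzone, by 1.40. Ccnd1 (cyclin D1) was higher by 1.38, and Cdkn1b, the inhibitor p27, was lower (−3.85). In KIT signaling and mTOR, where Kit was the member, 4 of 30 others were higher and 11 lower, among them Ddit4, an inhibitor of mTOR (−3.10), and Pik3cd, a catalytic subunit of PI3 kinase (−2.23). The summed level of 25 spermatid genes, active after meiosis, was 5.35 to 6.32 on GFRα1+ arrays, 10.5 to 10.9 on NGN3+ arrays, 10.8 to 11.2 on KIT+ arrays and 12.8 to 13.1 on whole testes arrays. In the lists of other cells, 5 of 7 peritubular myoid genes (median −1.41) and 4 of 8 endothelial genes (−0.96) were lower in KIT+ than in NGN3+ cells. Of 18 Sertoli cell genes, 2 were higher and 2 lower, and of 11 stress and immediate early genes 7 were lower (median −0.57), Egr1 among them. Summed levels of peritubular myoid genes were 4.0 to 4.39 on KIT+ arrays and 4.12 to 4.95 on NGN3+ arrays, and those of endothelial genes 2.31 to 2.37 on KIT+ arrays and 2.53 to 3.30 on NGN3+ arrays. Stress genes summed to 2.17 to 2.29 on KIT+ arrays and 3.97 to 4.35 on NGN3+ arrays. The part of these genes in the members' levels was not tested.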

How the data were processed

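Agilent SurePrint G3 Mouse GE 8x60K arrays were hybridized by the authors with Cy3-labeled cRNA made from 25 ng of RNA. They extracted intensity values with Feature Extraction (versions 10.7.3.1 and 10.7.1.1 per the file headers, 10.7.3.1 in the submitters' processing notes) and analyzed them in GeneSpring with a t-test and Benjamini-Hochberg correction. The deposited files hold the background-subtracted processed intensity per spot and a table of log2 values, which lay within 0.01 of log2 intensity minus each array's 75th percentile for 99.7% to 99.8% of probes, with no centering of genes. Probe coordinates are those of the files (mm9).

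Members were chosen on the deposited log2 table. All other levels are log2 processed intensity minus the 75th percentile of each array, without control spots and without the 103 to 161 spots per array that carry an outlier mark. No spot was saturated, 50.1% to 65.1% of probes were well above background, and the 75th percentile ran from 318 to 675 on the intensity scale. The number of arrays limits the precision. Probes of 60 bases were named through RefSeq (107 members by accession, 6 by symbol, 12 keeping the name in the files). Groups and replicates came from the sample labels. A list's summed level is the log2 of the sum of its genes' linear levels.

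Tests were made with limma 3.58.1 in R 4.3.3 (lmFit, eBayes, Benjamini-Hochberg, adjusted p under 0.05), over 12 arrays for KIT+ cells against whole testes and over the 9 sorted arrays for KIT+ against NGN3+ cells. Genes entered a test if every array of 1 of its groups read the probe well above background, as was so for the 125 members. The fit was tested on simulated data. Alternatives changed the scaling, background correction, dim-probe filter, probe choice, slide or replicate block, test and replicates. The members and gene lists were chosen with earlier results of these data known, and the grouping by role, the other probes, the genes with a KIT+ mean of at least 0 and the use of spiked-in controls were chosen after values were seen. Genes are named if they are Stra8 or Kit, are among the 20 largest KIT+ steps with a RefSeq symbol or the 10 largest ratios each way against whole testes, belong to a list, or lie nearest a threshold. Up to 4 genes of each list that are not members were eligible by adjusted p, and Ccnd2, Sohlh1 and the mast cell markers are named besides. Further members are named for their role, after their values were seen. Some members are not reported by name here.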

Additional observations from a re-analysis of the deposited data

How the results depend on the processing

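The set depends on the 75th percentile as the level that arrays share. With spiked-in control spots in its place, 21 genes met the rule and 0 of the members did, since the controls lay 1.71 (log2) higher in GFRα1+ than in NGN3+ cells but 0.10 apart between NGN3+ and KIT+ cells. The controls also lay 1.47 (log2) higher in whole testes than in KIT+ cells. No ratio over whole testes scaled on the controls is given here, so the ranges below do not cover that scaling. Whether the controls or the percentile reflect the RNA of the cells was not tested. In the alternatives planned for the rule, 98 to 128 genes met it under other scalings, background corrections, probe choices or slides, with 88 to 122 of the members among them. Leaving out single arrays gave 99 to 162 genes and 91 to 123 of the members, the highest count without NGN3+ replicate 3. In all, 39 members met the rule in each of 15 alternatives, Stra8 in 13 and Kit in 9. Against whole testes, 107 to 115 members were higher in every alternative. The members' median ratio was 2.49, and was 2.22 when the percentile was taken over probes measured above background everywhere, 2.12 with normexp, 2.28 with the mean of all probes and 2.30 with slide as a block (2.42 to 2.57 without single arrays). Members lower in KIT+ cells numbered 4, but 7 with that percentile and 2 with slide as a block. Cbfa2t3 (−0.53) and Meioc (−0.77) changed sign with the mean of all probes. Of 125 members, 107 kept their call in every alternative. Replicate numbers name the samples and do not pair them: same-numbered NGN3+ and KIT+ arrays correlated at −0.38, −0.58 and 0.24 in their deviations from the group means. With the replicate block, 114 members were higher than in whole testes, and 3498 genes were higher and 3629 lower in KIT+ than in NGN3+ cells, against 4223 and 4108 without it. Signal over background limits Dmbx1, Airn, Vmn2r-ps134 and the lincRNA on chromosome X to bounds, and 3 arrays per group limit all tests.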

Other observations

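The rule was also turned round, with NGN3+ cells at least 1.2 above GFRα1+ cells and KIT+ cells within 0.5 of NGN3+ cells. With the same floor of the KIT+ mean, it was met by 1014 genes. Of these, 5 were higher in KIT+ cells than in whole testes and 1006 were lower (limma), with a median log2 ratio of −3.26, where the 125 members had 114 higher and 4 lower. The KIT+ values took part in choosing both sets. The list of 25 spermatid genes had a median level of −1.54 in GFRα1+ cells, 3.30 in NGN3+ cells, 3.92 in KIT+ cells and 7.33 in whole testes, so it had the order of the genes of the turned rule and not that of the members. Its part in either set was not tested.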
